A study of Mus musculus with 6 samples.

Results

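Circular RNAs (circRNAs) are closed RNA rings made when a splice donor is joined to an acceptor that lies upstream of it. Ryr2 and Slc8a1 each gave rise to several of them in mouse hippocampus, and every circRNA whose listed host was the Ensembl identifier of either gene is described here. There were 21 such circRNAs among the 10652 in the deposited table, 10 of Ryr2 and 11 of Slc8a1, and none of the 21 listed a second host. The 2 genes were chosen by their circRNA levels in these same 6 libraries, Control and CUS, so differences between the groups are a description and support no finding.

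The table held 6 libraries of hippocampal RNA from adult male C57BL/6J mice aged 8 to 10 weeks, 3 labelled Control and 3 labelled chronic unpredictable stress (CUS). CUS mice met mild stressors in random order, such as restraint, cold water and a tilted cage, over 4 weeks. The labels do not say whether each library came from 1 mouse, so the spread between libraries may be partly technical. RNA was enriched for poly(A) before sequencing, per the labels' protocols, although a ring has no poly(A) tail.

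Ryr2 encodes a ryanodine receptor, the channel that lets calcium out of the endoplasmic reticulum, and it is a main form of that channel in hippocampal neurons. Slc8a1 encodes NCX1, an exchanger of the plasma membrane that uses the inward flow of sodium to carry calcium out of the cell. Release from the store and extrusion across the membrane together shape the calcium signals that follow synaptic activity. CircRNAs accumulate in neurons because rings have no free end for exonucleases, and many neuronal genes with long introns produce them.

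Ryr2 (ENSMUSG00000021313) lies on the minus strand of chromosome 13, from 11553102 to 12106945 on GRCm38, and its principal coding transcript in GENCODE vM21 has 105 exons. The median internal exon of that transcript is 115 bases, and the longest, exon 90, is 1298 bases with introns of 1091 and 1524 bases on either side. Slc8a1 (ENSMUSG00000054640) lies on the minus strand of chromosome 17, from 81373105 to 81738377, and its principal coding transcript has 11 exons. The longest internal exon is exon 2, at 1830 bases, against a median of 100 bases. Exon 2 is flanked by introns of 88670 and 202215 bases and carries the start codon 31 bases after its first base. A ring made of this exon alone is a well-known circRNA of mammalian heart and brain. Its coding start and its end are printed here. A back-splice of exon 2 would join that end to the first base of the same exon. The printed coding start begins 31 bases after that base, so the printed stretches would not meet at the junction. Capitals mark the start codon in the first and the last 3 bases before the splice donor in the second, and both are from GENCODE's transcript on the minus strand (GRCm38, chr17:81649548-81649607 and chr17:81647809-81647868).
Slc8a1 exon 2 coding start: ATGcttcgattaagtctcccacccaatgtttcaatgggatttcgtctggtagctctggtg
Slc8a1 exon 2 end: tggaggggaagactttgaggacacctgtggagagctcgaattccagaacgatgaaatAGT
The table was used without circRNA coordinates, so none of the 11 Slc8a1 circRNAs was matched to this exon.

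Levels are 10 to the deposited log10 value, and a library in which a circRNA has no value shows 0. In each library the levels fell on whole multiples of 1 step, whose size differed by library, and none above 0 was under 17 steps. The inverse of that step, taken as relative depth, was 100%, 95.75% and 90.8% in Control replicates 1 to 3, with Control replicate 1 as 100%. In CUS replicates 1 to 3 it was 81.9%, 89.8% and 88.8%, so every CUS library was below every Control library. Control replicates 1 to 3 had 4606, 4526 and 4329 circRNAs above 0, and CUS replicates 1 to 3 had 3991, 4238 and 4273. Depth and detection were thus lower in every CUS library, and their part in any group difference described here was not tested. Any 2 libraries shared 1961 to 2358 of the circRNAs above 0. Over all circRNAs, log2 levels correlated at 0.260 to 0.282 between libraries of 1 group and at 0.222 to 0.288 between libraries of different groups. Read numbers are not known, which leaves counting error without an estimate. Of 10 hippocampal neuron markers 6 had a circRNA, Rfx3 and Tenm3 in every library, and none was analysed for Dsp, Calb1, Neurod6 and Wfs1. No circRNA was analysed for any of 7 microglial markers or 8 markers of mural cells and vascular smooth muscle. Marker levels from circRNAs do not measure the messenger RNA of these genes.

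**Figure D1:**
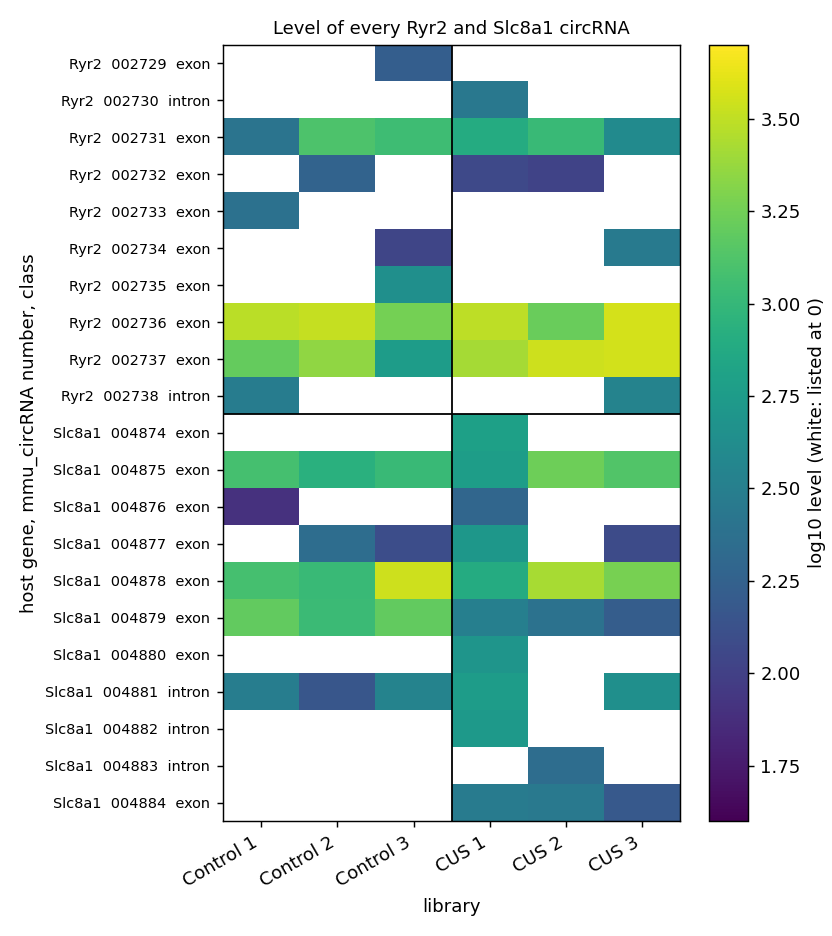
Level of each of the 21 circRNAs in the 6 libraries on a log10 colour scale, with circRNAs in rows, libraries in columns and white where a circRNA is listed at 0. The 3 Ryr2 and 3 Slc8a1 circRNAs present in all 6 libraries stand out as full rows, and CUS replicate 1 has 10 of the 11 Slc8a1 circRNAs.

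For each gene 3 circRNAs were above 0 in all 6 libraries. These 6 made up 28.6% of the 21, and of all circRNAs measured 7.55% were above 0 in all 6. Another 8 of the 21 were seen in 1 library alone, and 3 were seen in 2. Among the 179 hosts with 8 to 14 circRNAs, the median host had 1 circRNA in all 6 libraries. Of these hosts, 22 had at least 3, the 2 genes included, and 4 had more than 3. The rule did not use class, and the class of each circRNA is given in the deposited table. Intronic circRNAs made up 2 of the 10 for Ryr2 and 3 of the 11 for Slc8a1, against 4.41% of the whole table. Of 3772 hosts, 72 had at least 2 intronic circRNAs and 21 had at least 3. Most hosts have few circRNAs, and among the 179 hosts with 8 to 14 of them, the 2 genes included, 22 had at least 2 intronic ones and 10 had at least 3.

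The Ryr2 circRNAs were led by a pair. mmu_circRNA002736, the one of highest mean, was at 3049, 3305 and 1829.8 in Control replicates 1 to 3 and at 3116, 1654 and 3686 in CUS replicates 1 to 3. The groups overlapped, with means of 2728 ± 788 in Control and 2818 ± 1048 under stress (SD, n = 3 each). The lowest library of all was CUS replicate 2 and the highest was CUS replicate 3.

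mmu_circRNA002737, the second of the pair, was at 1584, 2259 and 575 in Control and at 2618, 3456 and 3612 under stress. Every CUS library was above every Control library, and Control replicate 3 was the lowest. Group means were 1472 ± 848 for Control and 3229 ± 535 for CUS (SD, n = 3 each), a ratio of 2.19. On the log2(level + 45.48) scale the difference was 1.29 with SE 0.53, and it was 0.74 without Control replicate 3. Summed circRNA levels of 8 astrocyte markers were also higher in every CUS library, at 2642, 2243 and 1709.7 against 1415, 1525 and 1085 in Control, where 4 of the 8 markers (Slc1a2, Gli3, Gpc5 and Slc4a4) had a circRNA and none was analysed for Gfap, Aqp4, Slc1a3 and Aldh1l1. The 4 markers did not move together. Gpc5 was lower in every CUS library, at 348, 296 and 179 against 377, 1056 and 801 in Control, and Slc1a2 was at 0 in CUS replicate 2 and Control replicate 3. Summed levels of the oligodendrocyte markers Mbp, St18, Edil3, Slc44a1 and Prr5l were 2989, 2039 and 2471 in CUS libraries and 1374, 1523 and 2040.2 in Control libraries, where CUS replicate 2 was just below Control replicate 3. Sums of the neuron markers overlapped, at 5461 to 9237 in Control and 6533 to 7544 in CUS. Of these, Rfx3 was higher in every CUS library (log2 difference 1.22, SE 0.45), Tenm3 was lower in every one (-1.03, SE 0.39), and Cpne4 was at 0 in all Control libraries and above 0 in all CUS libraries. Cpne4 was above 0 in the 3 libraries that the fit required only through CUS, so it had to differ. Of the 5 neuron markers tested, Rfx3, Tenm3 and Cpne4 had an unadjusted p under 0.05 with limma. Over all 2227 hosts tested, 127 (5.7%) did. None of the 3 passed limma's adjustment over all hosts (lowest adjusted p = 0.737). The part of any of these markers in the circRNA's difference was not tested. In bulk RNA, fewer cells of a type and less RNA per cell cannot be told apart.

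mmu_circRNA002731 was the third Ryr2 circRNA found in all libraries, at 254, 1303 and 1109 in Control and at 775, 1059.7 and 402 under stress. Its libraries spanned a wide range within each group, and the groups overlapped. mmu_circRNA002732 was at 0, 184 and 0 in Control and at 115, 105 and 0 under stress. The other 6 Ryr2 circRNAs were each above 0 in 1 or 2 libraries. mmu_circRNA002738, which is intronic, was at 304 in Control replicate 1 and 345 in CUS replicate 3, and mmu_circRNA002734 was at 109 in Control replicate 3 and 285 in CUS replicate 3. The other intronic circRNA, mmu_circRNA002730, was at 277 in CUS replicate 1 alone. mmu_circRNA002733 was seen in Control replicate 1 at 241, and mmu_circRNA002729 and mmu_circRNA002735 in Control replicate 3 at 170.2 and 439. Control replicate 3, the library with the lowest Ryr2 sum, thus had the most Ryr2 circRNAs above 0, at 6.

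Slc8a1 circRNAs were led by 3 exonic rings. mmu_circRNA004878, the one of highest mean, was at 1197, 1046 and 3436 in Control and at 775, 2682 and 1857 under stress. Control replicate 3 and CUS replicate 2 were high, and the group means of 1893 ± 1338 and 1771 ± 956 (SD, n = 3 each) differed by less than the spread. mmu_circRNA004875 was at 1209, 849.8 and 1056 in Control and at 589.7, 1732 and 1351 under stress. Here too CUS replicate 1 was the lowest of the 6 libraries and the groups overlapped.

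mmu_circRNA004879 was high in all Control libraries, at 1577, 1082 and 1561, and low in all CUS libraries, at 318, 247 and 166. The highest CUS library was below the lowest Control library. Its mean level was 5.77 times as high in Control, and the log2 difference of -2.34 (SE 0.80) stayed between -2.53 and -2.13 when each library was left out in turn. It was -1.79 with 5 times the pseudocount. mmu_circRNA004884 had the opposite pattern, listed at 0 in all 3 Control libraries and at 295, 282 and 155 in CUS. It passed the filter on low values only through its CUS libraries, so it had to differ, and no fold can be set against Control libraries at 0. The marker values given for mmu_circRNA002737, with members that went opposite ways, stand beside both circRNAs too, and their part was not tested.

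**Figure D2:**
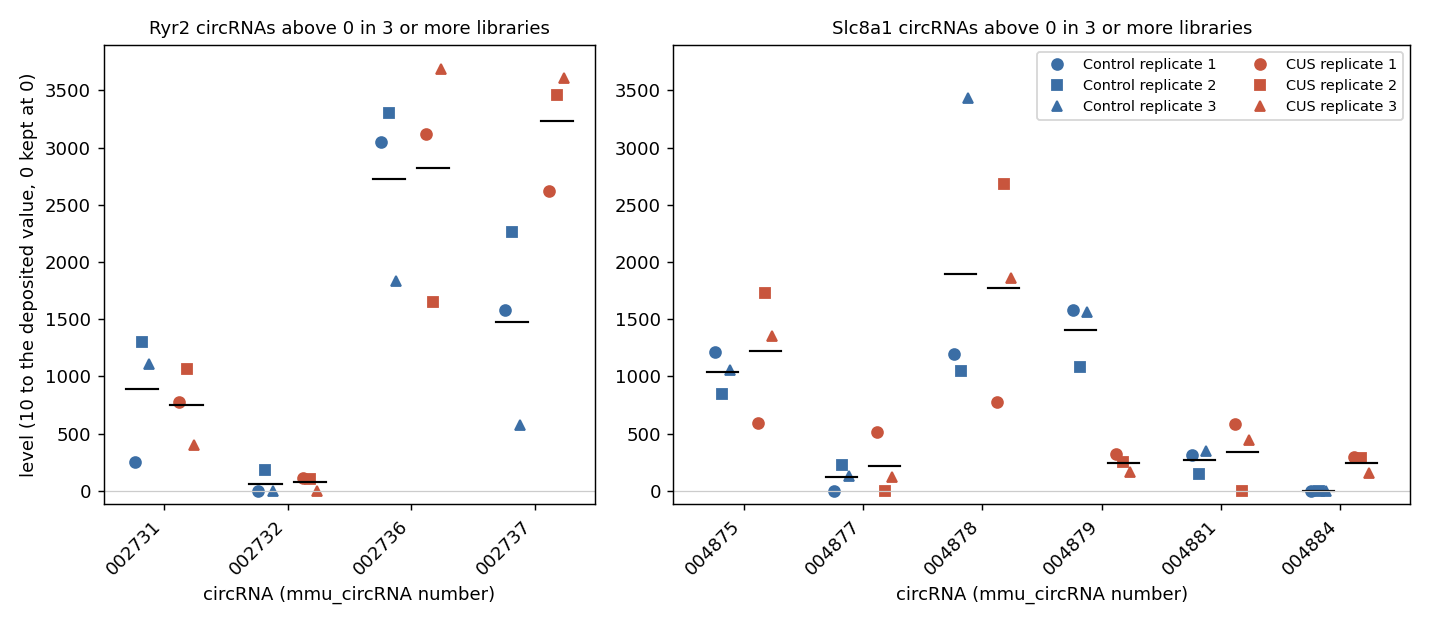
Level of the 10 circRNAs above 0 in at least 3 libraries, with 1 symbol per library (blue Control, red CUS, shape by replicate number) and a black line at each group mean. CUS libraries of mmu_circRNA002737 lie above the Control ones, those of mmu_circRNA004879 lie below, and the other circRNAs present in all 6 libraries overlap.

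The remaining Slc8a1 circRNAs were lower and less regular. The intronic mmu_circRNA004881 was at 311, 146 and 343 in Control and at 581, 0 and 446 under stress. mmu_circRNA004877 was at 0, 224 and 125 in Control and at 516, 0 and 119.6 under stress. Both were highest in CUS replicate 1 and listed at 0 in CUS replicate 2. mmu_circRNA004876 was at 79.7 in Control replicate 1 and 198 in CUS replicate 1, and the intronic mmu_circRNA004883 was at 226 in CUS replicate 2 alone.

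CUS replicate 1 was the only library with 3 of the 11 Slc8a1 circRNAs (27.3%). These were mmu_circRNA004874 at 619, mmu_circRNA004880 at 498 and the intronic mmu_circRNA004882 at 548. Of all circRNAs measured, 5.51% were seen in that library alone, the lowest share of the 6 libraries, and it had the lowest relative depth. With 10 Slc8a1 circRNAs above 0 it stood against 5 or 6 in each of the others. Ryr2 showed no such spread there, with 5 circRNAs above 0 and 1 of them seen in that library alone.

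Of the 21 circRNAs, 10 were above 0 in at least 3 libraries and entered limma's fit, and 0 passed an adjusted p under 0.05 over all circRNAs, where the background was 0% of 3896 circRNAs called. Their fitted values were higher in CUS for 6 and lower for 4, with a median log2 difference of 0.07 against -0.12 over all circRNAs tested. At an unadjusted p under 0.05 limma had 234 circRNAs, 6.01% of those tested, and mmu_circRNA002737, mmu_circRNA004879 and mmu_circRNA004884 were among them. Groups did not overlap for these 3, 2 higher and 1 lower in CUS, and over all circRNAs tested 5.78% were higher and 5.08% lower in this way. For the 6 circRNAs above 0 in all libraries the counts were 1 higher and 1 lower, beside 7.46% and 3.98% of the 804 circRNAs of that kind. Since these contrasts entered the choice of the genes, nothing is read from the counts.

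**Figure D3:**
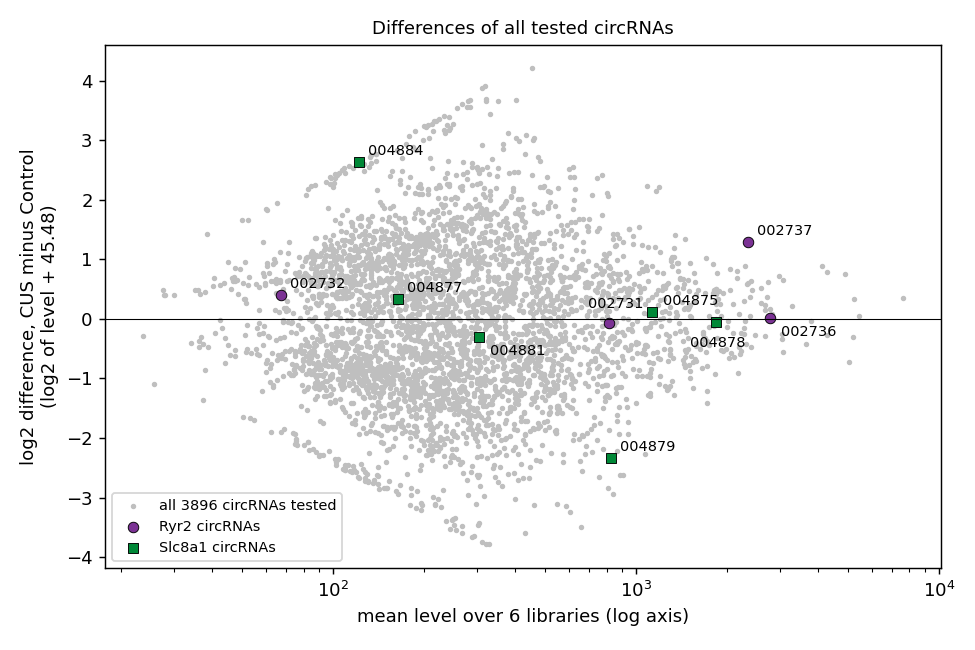
Log2 difference between CUS and Control against mean level (log axis) for all 3896 circRNAs tested, with Ryr2 circRNAs as purple circles and Slc8a1 circRNAs as green squares. At 1.29 and -2.34, mmu_circRNA002737 and mmu_circRNA004879 lie away from 0, and the other 4 circRNAs present in all 6 libraries lie between -0.07 and 0.12.

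The summed level of each gene overlapped between groups. The Ryr2 sum was 5432, 7052 and 4232 in Control and 6902, 6275 and 8331 under stress. Control replicate 2 was above CUS replicates 1 and 2, and the log2 difference was 0.38 (SE 0.31), or 0.20 without Control replicate 3. The Slc8a1 sum was 4374, 3348.5 and 6522 in Control and 4938, 5170 and 4093 under stress. Its lowest and highest libraries were both Control, and the log2 difference was 0.04 with SE 0.35. It was 0.30 without Control replicate 3, -0.18 without Control replicate 2 and -0.02 without CUS replicate 2. Of 2227 hosts tested with limma, 0 passed an adjusted p under 0.05 (0%), and 127 (5.7%) had an unadjusted p under 0.05. Neither sum was among the 127. Over the 6 libraries the coefficient of variation was 22.3% for the Ryr2 sum and 22.9% for the Slc8a1 sum. Hosts with 8 to 14 circRNAs had a median of 43.4%, and 159 and 158 of these 179 hosts were more variable than Ryr2 and Slc8a1. The 2 genes were also among the highest of these hosts by mean sum, with 2 hosts above Ryr2 and 12 above Slc8a1. Their mean sums were 6370 and 4741, against a median of 1941. Whether the smaller variation goes with the higher level was not tested.

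Within Ryr2 the balance of the leading pair differed between libraries. mmu_circRNA002736 carried 56.1%, 46.9% and 43.2% of the gene's sum in Control and 45.1%, 26.4% and 44.2% under stress. CUS replicate 2 stood apart as the library with the smallest share. mmu_circRNA002737 carried 29.2%, 32.0% and 13.6% in Control and 37.9%, 55.1% and 43.4% under stress, so its share was larger in every CUS library. The level of mmu_circRNA002736 was 1.93, 1.46 and 3.18 times that of mmu_circRNA002737 in Control and 1.19, 0.48 and 1.02 times under stress. The groups did not overlap in this ratio, which holds the level of mmu_circRNA002737. They overlapped in the ratios of mmu_circRNA002736 and of mmu_circRNA002737 to mmu_circRNA002731. No share over other circRNA pairs was taken for such ratios, here or in Slc8a1. The Ryr2 sum without mmu_circRNA002737 was 4099 ± 608 in Control and 3940.2 ± 995 under stress (SD, n = 3 each). Together the pair held between 56.8% and 87.6% of the sum, and with mmu_circRNA002731 added between 83.0% and 98.3%.

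In Slc8a1, mmu_circRNA004879 was the first or second circRNA of the gene in Control and a minor one in CUS. It carried 36.0%, 32.3% and 23.9% of the sum in Control and 6.45%, 4.79% and 4.05% under stress. In Control replicates 1 and 2 it was the highest Slc8a1 circRNA, and in Control replicate 3 only mmu_circRNA004878 was above it. mmu_circRNA004875 stood at 0.767, 0.786 and 0.676 times the level of mmu_circRNA004879 in the Control libraries and at 1.85, 7.00 and 8.15 times in the CUS libraries. The Slc8a1 sum without mmu_circRNA004879 overlapped between groups, at 2798, 2267 and 4960.3 in Control and 4619.8, 4922 and 3928 under stress.

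The leading Slc8a1 circRNA, mmu_circRNA004878, carried 27.4%, 31.3% and 52.7% in Control and 15.7%, 51.9% and 45.4% under stress. Its mean share was 0.54 percentage points larger in CUS, and this difference ran from -6.58 without CUS replicate 2 to 11.5 without CUS replicate 1, so its sign rested on single libraries. CUS replicate 1 was the library of smallest share. There the 3 leading Slc8a1 circRNAs held 34.1% of the sum, against 82.4% to 92.8% in the other 5 libraries, and circRNAs seen in 1 or 2 libraries held 37.7%.

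**Figure D4:**
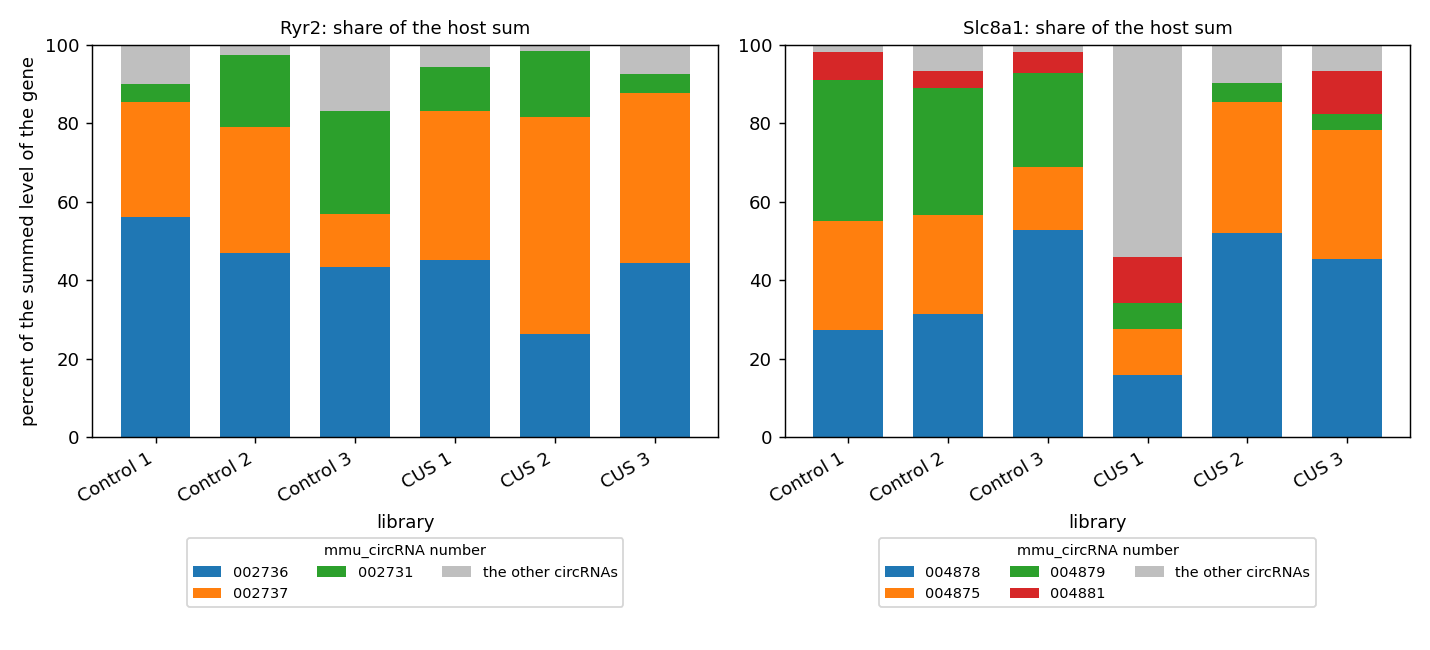
Percent of each gene's summed level carried by its leading circRNAs in each library, as stacked bars, with the remaining circRNAs in grey. The green part of the Slc8a1 bars, mmu_circRNA004879, covers 23.9% to 36.0% in Control and 4.05% to 6.45% in CUS, and the grey part is largest in CUS replicate 1.

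Shares were set beside those of other circRNAs. Among 669 circRNAs above 0 in all libraries whose host had at least 2 circRNAs, 5.83% had a larger share in every CUS library and 5.23% a smaller one in every CUS library. mmu_circRNA002737 was of the first kind, with a mean share 20.5 percentage points larger in CUS, and mmu_circRNA004879 of the second kind, at -25.7 points. Of the 669, 40 had a difference lower than that of mmu_circRNA004879, and 598 had one lower than that of mmu_circRNA002737. The other 4 circRNAs of the 2 genes in this set overlapped between groups. In the share of its leading circRNA over all libraries, Ryr2 at 43.5% and Slc8a1 at 38.6% were above the median of 31.7% for hosts with 8 to 14 circRNAs, with 41 and 63 of the 179 hosts above them.

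Other circRNAs and hosts were ranked by the likeness of their pattern, measured as Pearson's r of log2 levels over the 6 libraries, and the values are a description. For the Ryr2 sum the closest of 919 hosts was Lrrc7 (r = 0.934), the gene of the postsynaptic protein densin, followed by Gm19280, Mvb12b, Gphn and Oxr1 down to 0.891. Lrrc7 was at 1704, 1979 and 1003 in Control and 2432, 2275 and 2642 under stress, with Control replicate 3 lowest as for Ryr2. For the Slc8a1 sum it was Grip1 (r = 0.967), the gene of a scaffold protein of AMPA receptors, followed by Smarcc1, L3mbtl3, Cdh7 and Phip down to 0.896. Grip1 was at 915, 484 and 1862 in Control and 1439, 1202 and 875 under stress.

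The same ranking was made for single circRNAs among 801 of other hosts. Among the closest to mmu_circRNA004879 were circRNAs of Irf2 (r = 0.977), Cdyl (0.945), Jund (0.943) and Arid4a (0.943). The closest to mmu_circRNA002737 were circRNAs of Rps6ka5 (r = 0.970), Ldb2 (0.968), Fam205c (0.960), Uck2 (0.956) and Cdk13 (0.941). With 6 points and 801 candidates, high values of r occur readily.

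Host sums of other genes for intracellular calcium were taken from a list of 67 genes. Of these, 30 had a circRNA and 18 were tested, of which 7 were fitted higher under stress and 11 lower. None of the 18 passed limma's test over all hosts (lowest adjusted p = 0.737), and Atp2b1 alone had an unadjusted p under 0.05. The median log2 difference of the 18 was -0.09, against -0.06 for the 2227 hosts tested, of which 1065 were higher and 1162 lower.

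Among the release channels and their partners, Ryr3, which encodes another ryanodine receptor, was at 2786, 1377 and 851 in Control and 265, 1552 and 2449 under stress over 9 circRNAs. Both groups spanned a wide range and overlapped. Jph1, which encodes a junctophilin that holds the store close to the surface membrane, was at 826, 567 and 622 in Control and 0, 562 and 136 under stress, and the log2 difference was -2.05 (SE 1.29). Itpr1, the gene of the IP3 receptor that releases calcium from the store, was at 765, 845 and 351 in Control and 472, 522 and 0 under stress (log2 difference -1.47, SE 1.22). The Jph1 and Itpr1 sums each hold a CUS library at 0, and the Ryr3 sum holds none. Asph, whose products include junctin, a partner of ryanodine receptors in muscle, was at 1246, 648 and 761 in Control and 1333, 1589.7 and 2044 under stress (log2 difference 0.90, SE 0.60).

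Among the pumps of the plasma membrane, which carry calcium out of the cell beside the exchanger, Atp2b1 was at 944, 487 and 325 in Control and 1371, 1987 and 1925 under stress over 11 circRNAs. Every CUS library was above every Control library, and the log2 difference was 1.62 with SE 0.67. Atp2b2 was at 681, 1109 and 785 in Control and 622, 51.1 and 1321 under stress, and its log2 difference of -0.99 (SE 0.93) came with a single low library. Atp2b3 was at 0, 842 and 0 in Control and 711, 312 and 217 under stress. Groups did not overlap for Atp2b1 and Asph on the higher side and Jph1 on the lower side, 2 and 1 of 18, where 5.66% and 5.75% of all hosts tested did so.

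Slc24a2, a potassium-dependent exchanger gene and the only tested exchanger of the list, was at 1564, 1205 and 1189 in Control and 823, 2560.4 and 902 under stress (log2 difference -0.07, SE 0.59). Slc8a3, the gene of NCX3, was at 270.4, 149 and 0 in Control and was at 0 in every CUS library, and Slc8a2 was not analysed here. Of the sensor proteins, Ncald was at 0, 393 and 0 in Control and 286, 506 and 677 under stress (log2 difference 2.39, SE 1.51). Kcnip4 was at 625, 83.2 and 338 in Control and 1082, 59.2 and 0 under stress, and the log2 difference was -0.87 (SE 1.53). Its mean went the other way, at 380 in CUS and 349 in Control, with CUS replicate 3 at 0. Neither log2 difference, of Ncald or of Kcnip4, was larger than 2 times its standard error.

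**Figure D5:**
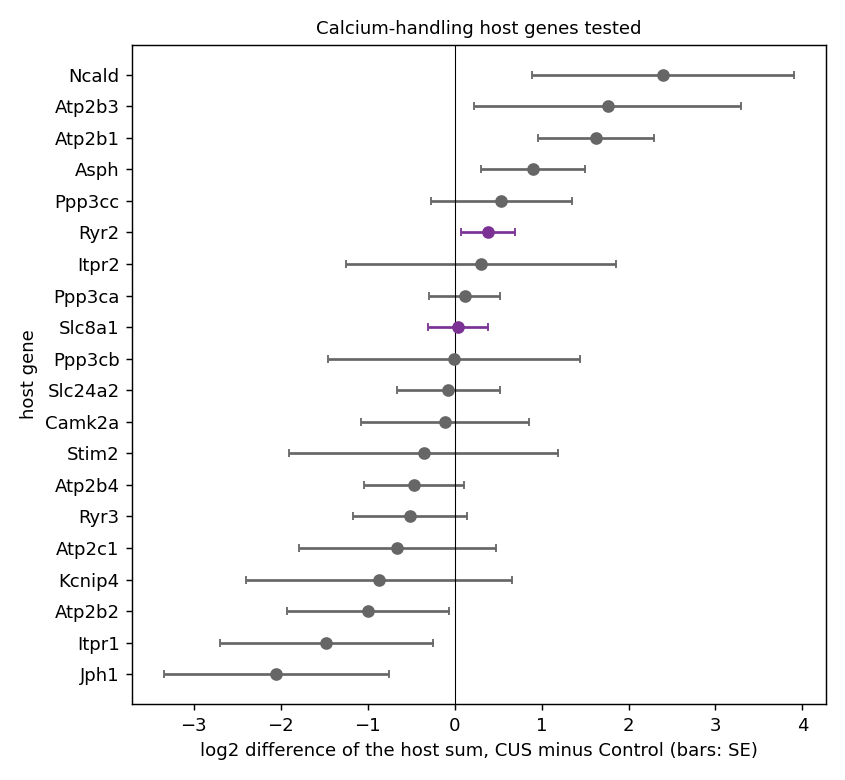
Log2 difference of the host sum between CUS and Control, with SE bars, for the 18 tested hosts of the calcium list (grey) and for Ryr2 and Slc8a1 (purple). Ryr2 at 0.38 and Slc8a1 at 0.04 lie in the middle of a range from -2.05 for Jph1 to 2.39 for Ncald, and their bars are among the shortest.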

How the data were processed

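CircRNA levels were measured in 6 hippocampal libraries, 3 Control and 3 CUS. The authors deposited 1 table of log10 values per circRNA and library, with host identifiers and a class, and circRNAs without a value at 0. Neither the linear unit nor the circRNA caller is given in the sources used here. The submitters' processing notes name mm9, StringTie, DESeq and edgeR with no role. Levels were taken as 10 to the value, and 100% of values under 300 steps lay within 0.05 of a whole step.

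Host symbols, coordinates and exons came from GENCODE vM21 (GRCm38), which held 4467 of the 4483 identifiers. Exons are those of the APPRIS principal transcript of longest coding sequence and most exons. Of 786 circRNAs with several hosts, 583 had 1 protein-coding host and were counted there, and 203 entered no sum. All circRNAs and hosts above 0 in at least 3 libraries were fitted with limma 3.58.1 in R 4.3.3 (eBayes with a trend) on log2(level + 45.48), the median of the libraries' lowest levels above 0, with Benjamini-Hochberg adjustment at 0.05. The pseudocount draws log2 differences between low values above 0 towards 0, but a library at 0 can set their size and sign. For mmu_circRNA004881, at 0 in CUS replicate 2, the log2 difference was -0.31. Its mean level was 342 in CUS and 267 in Control. The fit was also run on simulated, normally distributed log2 values. These did not imitate the many values at 0, so that run does not show how the fit treats them. Summaries used Python 3.11.15 and pandas 2.3.3, and plots used matplotlib 3.10.9.

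The 2 genes, the lists and the tests were chosen with earlier results of these data known. Every Ryr2 and Slc8a1 circRNA is named. For each gene's sum and its circRNA of smallest p, the 5 hosts or circRNAs of highest r among those above 0 in all libraries are named, apart from a withheld item that is not reported here, and from the calcium list the 4 highest and 4 lowest log2 differences. Ryr3, Slc24a2, Slc8a3 and Slc8a2 were added after their values were seen, as relatives of the 2 genes. Alternatives were other pseudocounts, filters and scalings, no trend, a replicate block and leaving out each library.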

Additional observations from a re-analysis of the deposited data

How the results depend on the processing

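No circRNA and no host passed an adjusted p under 0.05 in any of the 14 alternative limma fits, where lowest adjusted p-values ran from 0.329 to 0.962 for circRNAs and from 0.198 to 0.959 for hosts. The log2 difference of the Ryr2 sum stayed positive, from 0.20 to 0.57 over the libraries left out in turn. That of the Slc8a1 sum, 0.04, ran from -0.18 to 0.30 and was negative without Control replicate 2, without CUS replicate 2 (-0.02) and on whole steps (-0.09). The leading Ryr2 circRNA's share difference ran from -13.5 to -4.05 percentage points. Over 130 values of the 10 tested circRNAs, 18 changed sign, none of them for mmu_circRNA002737 or mmu_circRNA004879. Groups did not overlap for either, so leaving out libraries or changing the pseudocount, filter, trend or block could not change their sign. No value of mmu_circRNA002732 or mmu_circRNA004884 changed sign either, but both were above 0 in 3 libraries and left the fit without any of these. With all Control libraries at 0, mmu_circRNA004884 could not change sign, and mmu_circRNA002732 fell to 0.01 without Control replicate 1 or 3. Against a limit of 1 SD, which was not the SE of the fit, 3 of the 130 values moved, all with another pseudocount. They were mmu_circRNA004879 (-1.79, against -2.34 with SE 0.80) and mmu_circRNA004884 (4.75 and 1.04, against 2.63). mmu_circRNA002737 was not counted as moved, though without Control replicate 3 it fell from 1.29 (SE 0.53) to 0.74. Alternatives chosen after seeing the data were the shares of mmu_circRNA002737 and mmu_circRNA004879 without each library, at 14.9 to 24.3 and -29.1 to -23.0 points. Groups did not overlap in either share, so leaving out a library could not change the sign. With the replicate block 0 circRNAs and 0 hosts were called and the Ryr2 and Slc8a1 sums kept log2 differences of 0.38 and 0.04. Same-numbered libraries did not deviate together (correlations -0.01, -0.03 and -0.02), so the numbers were not taken as pairs. No 2 circRNAs of 1 gene had levels within 5% in every library, so counting such circRNAs once changed nothing. Read depth per value is unknown, which limits what a value of 0 shows.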
